A study of Homo sapiens with 4 samples.

Results

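ZIC2, ZIC5 and ZIC4 are the genes described here, 3 of the 17472 genes listed in the authors' table of normalised read counts. They were taken as the rows with these symbols, and they were chosen by their listed values with results of the same comparison already known. The difference between the groups is therefore given for them as values, with no p-value. Being listed required at least 1 read in every library. Other ZIC family genes are not analysed here. The samples were H1 cells, an established embryonic stem cell line, with 2 libraries labelled WT and 2 labelled MEK5DD overexpression, all grown in E8 medium, which contains FGF2 and TGF-beta. MEK5DD is MAP2K5 (the kinase upstream of ERK5) with Ser311 and Ser315 changed to Asp, put in by lentivirus and selected with puromycin as 1 established line. The samples include none given lentivirus and puromycin without MEK5DD, so delivery, selection and the subline cannot be told apart from MEK5DD in any difference below. The labels do not say whether libraries of a group came from separate cultures, so the spread between them may be technical.

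ZIC genes encode transcription factors with C2H2 zinc fingers that are close in sequence to those of the GLI proteins, which carry the hedgehog signal to the genome. They act early in the neural plate and dorsal neural tube, and loss of one copy of ZIC2 is a known cause of holoprosencephaly, a failure of the forebrain to divide. In pluripotent cells ZIC proteins bind enhancers together with other stem cell factors. ZIC2 and ZIC5 lie beside each other and are transcribed away from each other.

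In GENCODE v29 (GRCh38) ZIC2 (ENSG00000043355.11) spans chromosome 13, 99981772 to 99986773, on the plus strand. ZIC5 (ENSG00000139800.8) spans chromosome 13, 99962964 to 99971909, on the minus strand, so that the starts of the pair are 9863 bases apart and face outward. ZIC4 (ENSG00000174963.17) is on chromosome 3, 147386046 to 147406860, on the minus strand. The stretches before the starts of ZIC2 and ZIC5 are printed because this pair shares a locus and was lower by a like amount in MEK5DD cells. They come from RefSeq's promoter table for GRCh38.p14, read 5′ to 3′ on the gene's own strand, at chr13:99981534-99981771 for ZIC2 (238 bases, plus strand) and chr13:99971910-99972159 for ZIC5 (250 bases, minus strand). Capitals mark the GC box, GGGCGG or its reverse complement CCGCCC, a motif of the SP and KLF factors.
ZIC2: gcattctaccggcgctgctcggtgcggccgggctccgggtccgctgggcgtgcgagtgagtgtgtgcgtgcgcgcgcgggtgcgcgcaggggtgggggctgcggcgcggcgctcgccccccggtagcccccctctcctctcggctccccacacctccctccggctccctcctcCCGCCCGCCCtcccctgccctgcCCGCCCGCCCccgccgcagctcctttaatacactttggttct
ZIC5: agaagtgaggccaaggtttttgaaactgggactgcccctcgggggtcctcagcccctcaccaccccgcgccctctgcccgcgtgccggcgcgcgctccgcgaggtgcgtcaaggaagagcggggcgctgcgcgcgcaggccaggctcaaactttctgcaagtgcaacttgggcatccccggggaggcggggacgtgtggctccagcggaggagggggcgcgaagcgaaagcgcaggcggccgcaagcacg

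The ZIC2 stretch held 4 GC boxes, all on the opposite strand and overlapping in pairs, and the ZIC5 stretch held 0. Over full windows of 300 bases (250 before and 50 after the start), 44.9% of 34943 RefSeq promoter windows held a GC box. Both ZIC windows were rich in G and C, at 75.0% for ZIC2 and 70.3% for ZIC5 against a median of 58.7%. They held 35 and 33 CpG pairs against a median of 14. On both strands neither window held the ZIC core motif CCTGCTG (10.5% of all windows), the GLI core motif CCACCCA (9.20%), the TATA box TATAAA (11.6%) or a MEF2 site (3.0%). The ZIC5 window held 1 CCAAT box, in the part after the start, and the ZIC2 window held 0 (34.6% of all windows). ZIC4 has 4 windows in the table, and the one nearest to its GENCODE start has a RefSeq start 317 bases inside the GENCODE gene, so it lies within the gene and is not matched in position to the other windows. It was poorer in G and C (43.3%, 10 CpG pairs) and held none of these 6 motifs. A match or its absence describes these letters in these windows only.

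The libraries held 14908486 to 17628945 reads recovered from the normalised values. MAP2K5 stood at 3382 and 3558 in MEK5DD against 343.5 and 314.5 in WT, which matches the labels. Here and below a gene other than the ZIC genes is said to rise or fall where its adjusted p was under 0.05 in the limma fit over all 15721 genes tested. Of those 6.47% were lower and 7.69% higher by this rule. All 8 markers of embryonic stem cells were listed, with a summed level of 131416 and 128934 in WT and 134319 and 125194 in MEK5DD. NANOG rose (0.26, SE 0.06, adjusted p = 0.0117) and SOX2 fell (-0.20, SE 0.06, adjusted p = 0.0437) in this list, and both calls were lost when either WT library was left out (adjusted p of 0.167 to 0.262 for NANOG and 0.350 to 0.485 for SOX2). Of 9 neuron and glia markers 8 were listed, with a summed level of 497.6 and 435.4 in WT and 1526 and 1589 in MEK5DD. STMN2 carried that gap, at 87.2 and 80.2 in WT and 1183 and 1237 in MEK5DD: without it the sum of the other 7 was 410.4 and 355.2 in WT and 342.6 and 351.8 in MEK5DD. Of the 6 tested, 1 rose (STMN2) and 1 fell (MAP2). Of the markers of other cells, 3 of 4 tested fibroblast genes and 2 of 3 mesoderm genes rose. Of 3 endoderm genes 1 rose and 1 fell, and of 4 trophoblast and amnion genes 1 rose and 3 fell. Each endoderm call was of a gene that passed the low-value filter (10 in at least 2 libraries) through 1 group alone. GATA4 rose from 3.52 and 5.21 in WT to 17.3 and 13.95 in MEK5DD. FOXA1 fell from 37.0 and 43.7 in WT to 7.27 and 7.97 in MEK5DD. DESeq2 called 0 endoderm genes higher and 1 lower, and 1 trophoblast and amnion gene higher and 2 lower. The summed levels were 7335 to 7417 in WT and 8822 to 9170 in MEK5DD for fibroblasts, and 2772 to 2856 and 5550 to 5832 for mesoderm. They were 61.7 to 68.7 and 30.0 to 33.9 for endoderm, and 448.3 to 485.4 and 269.9 to 285.1 for trophoblast and amnion. THY1, which was not called, carried most of the fibroblast sum (5775 and 5704 in WT, 6214 and 6072 in MEK5DD). KDR carried most of the mesoderm sum (2757 and 2669 in WT, 5366 and 5608 in MEK5DD). Only 4 of 7 fibroblast, 3 of 5 mesoderm and 3 of 6 endoderm markers were listed, so the sums cover these cell types in part. The part of such cells in the ZIC differences was not tested.

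ZIC2 was the most abundant of the genes. WT replicates 1 and 2 had 4304 and 4451 normalised reads, and MEK5DD replicates 1 and 2 had 3862 and 3466. Both MEK5DD values lay under both WT values, and the MEK5DD libraries differed more from each other than the WT libraries did. The WT mean was 4377 ± 104 and the MEK5DD mean 3664 ± 279.5 (SD, n = 2 per group), a log2 difference of -0.26 (SE 0.07), or 16.4% lower.

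ZIC5, the partner of ZIC2 on chromosome 13, had 1833 and 1871 normalised reads in WT and 1496 and 1439 in MEK5DD. The groups did not overlap, and the values within each group lay closer together than for ZIC2. The WT mean was 1852 ± 26.7 and the MEK5DD mean 1467 ± 39.9 (SD, n = 2 per group), a log2 difference of -0.34 (SE 0.07), or 20.8% lower.

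ZIC4 had far fewer reads, 126.8 and 110.4 in WT and 62.7 and 73.8 in MEK5DD after normalisation. These rest on 144, 106, 69 and 74 recovered reads, in the same order. The groups did not overlap, but the exact 95% counting intervals of WT replicate 2 (90.4 to 133.5) and MEK5DD replicate 2 (57.9 to 92.6) did. Intervals cover counting error only. The WT mean was 119 ± 11.6 and the MEK5DD mean 68.2 ± 7.82 (SD, n = 2 per group), a log2 difference of -0.79 (SE 0.17), or 42.2% lower.

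**Figure D1:**
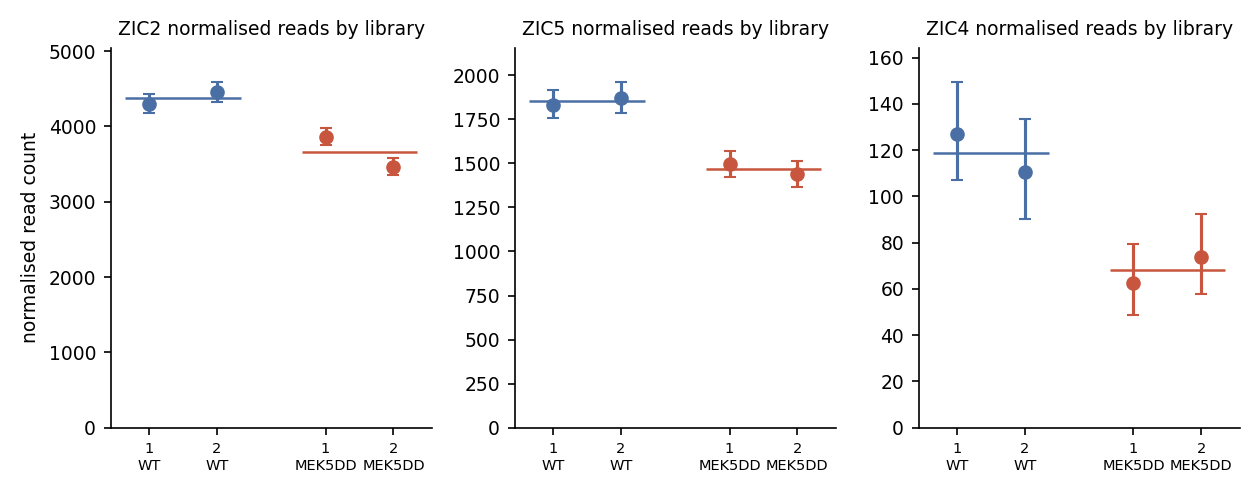
Normalised read count (y axis, from 0) of ZIC2, ZIC5 and ZIC4 in each library (x axis: WT replicates 1 and 2 in blue, MEK5DD replicates 1 and 2 in red). Bars are exact 95% counting intervals and horizontal lines are group means. In each panel both MEK5DD points sit under both WT points, and the gap relative to the level is widest for ZIC4.

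All 3 genes had at least 10 normalised reads in every library, so none passed the filter on low values through 1 group alone. All 3 met the rule for a lower level in the limma fit over 15721 genes, an adjusted p under 0.05, which 6.47% of genes met. Likewise all 3 had both MEK5DD values under both WT values, an arrangement shown by 28.0% of genes. As the genes were chosen with this comparison known, these counts add no support. Without the mean-variance trend in limma 0 of the 3 met the rule (2 at an unadjusted p under 0.05; 1.21% of genes lower), and without WT replicate 1 also 0 of 3 (3 unadjusted; 3.36% of genes). All 3 met it in edgeR, as 6.73% of genes did, and in DESeq2, as 3.75% did. Without WT replicate 2 only ZIC4 met it (3.07%).

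The sizes of the differences were modest for the abundant pair. Among all genes tested, whose median difference was 0.00 (log2), 17.6% had a lower difference than ZIC2 and 13.1% a lower one than ZIC5. For ZIC4 3.17% had a lower one. The median absolute difference over all genes was 0.17. In these bulk libraries fewer cells with a transcript and less of it per cell cannot be told apart.

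The mean log2 ratio of ZIC2 to ZIC5 was slightly higher in MEK5DD, mostly through MEK5DD replicate 1. Per kilobase of exon, ZIC2 stood at 3.29 and 3.33 times the level of ZIC5 in the WT libraries and at 3.62 and 3.38 times in the MEK5DD libraries. The log2 ratio was 0.08 higher in MEK5DD on average, but the ratios of WT replicate 2 and MEK5DD replicate 2 were close. Counting error of the ratios was not computed. The MEK5DD ratios differed more from each other than the WT ratios did. ZIC4 was lower relative to both partners of the pair: ZIC5 stood at 26.7 and 31.3 times its level per kilobase in WT and at 44.1 and 36 times in MEK5DD. These ratios were not tested.

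Levels were ordered ZIC2, ZIC5, ZIC4 in every library, with no overlap. In WT the level per kilobase of exon was 1322 ± 31.4 normalised reads for ZIC2, 399.2 ± 5.75 for ZIC5 and 13.8 ± 1.36 for ZIC4 (SD, n = 2). Among 17034 genes with an exon length, whose median was 50.1 per kilobase, ZIC2 ranked at percentile 97.8, ZIC5 at 90.7 and ZIC4 at 26.3. For scale, the pluripotency factor gene SOX2 stood at 1822 ± 36.1 per kilobase in WT, above ZIC2. In MEK5DD the levels per kilobase were 1107 ± 84.5 for ZIC2, 316.3 ± 8.60 for ZIC5 and 7.96 ± 0.91 for ZIC4, so the order was the same. The length used for ZIC4 (8568 bases) joins the exons of 17 GENCODE transcripts, more than any one of them need hold, against 3310 bases for ZIC2 and 4639 for ZIC5.

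**Figure D2:**
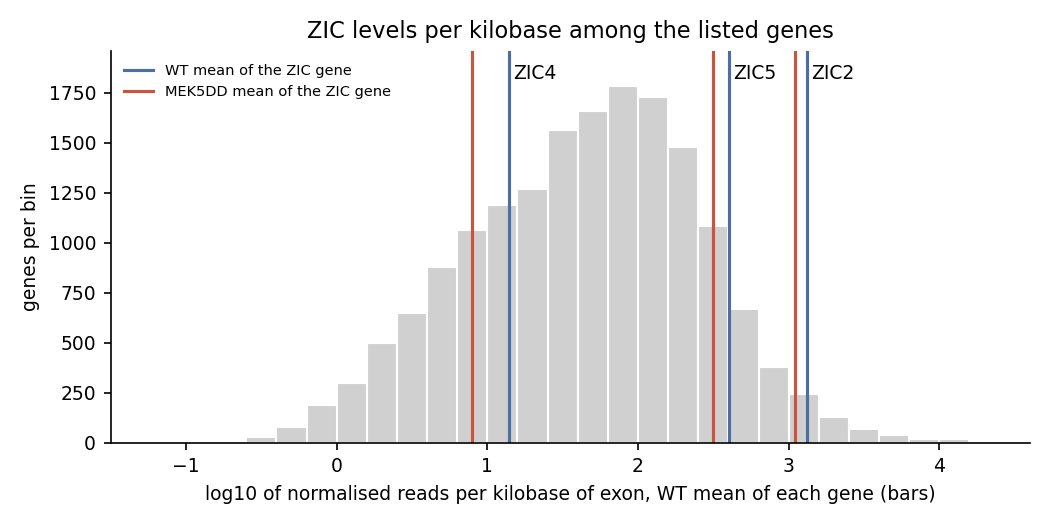
Number of genes (y axis) by log10 of their mean WT level in normalised reads per kilobase of exon (x axis), as grey bars, with the WT mean (blue line) and MEK5DD mean (red line) of each ZIC gene. ZIC2 and ZIC5 sit in the upper tail and ZIC4 below the median, and each red line lies to the left of its blue line.

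Whether reads of the ZIC genes could be mistaken for one another was checked on the GENCODE transcripts. Of 3292 distinct windows of 50 bases in ZIC2 transcripts and 4590 in ZIC5 transcripts, 0 occurred in a transcript of any other gene on either strand. ZIC4 overlaps 2 annotated genes on the opposite strand, the noncoding ZIC4-AS1 and a protein-coding gene that also belongs to the ZIC family and is not analysed here. Of its 8785 windows 299 (3.4%) occurred in transcripts of other genes on that strand and 0 in transcripts of ZIC2 or ZIC5. The strand setting of the counting is not known here, so reads from ZIC4 and from the genes opposite it cannot be told apart in those windows.

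Genes around the pair on chromosome 13 mostly kept to smaller or less precise differences. Of 12 other listed genes whose start lies within 1 Mb of the ZIC2 start, all tested, 1 fell and 0 rose in limma (1 and 1 at an unadjusted p under 0.05, 1 and 1 with edgeR, 1 and 0 with DESeq2), a share near the 6.47% of all genes that were lower. The median difference of these 12 was -0.14. The gene that fell was TMTC4, which encodes a protein mannosyltransferase of the endoplasmic reticulum, with its start 693 kb from that of ZIC2. It was at 1018 and 943.6 in WT and at 798.7 and 760.5 in MEK5DD (log2 difference -0.33, SE 0.08, adjusted p = 0.0168 from limma). Its call was lost when WT replicate 1 was left out (adjusted p = 0.283), when WT replicate 2 was (adjusted p = 0.0724) and when limma ran with no trend (adjusted p = 0.140). PCCA, a subunit gene of propionyl-CoA carboxylase and the nearest protein-coding gene on the ZIC2 side, was at 981.2 and 942.6 in WT and at 905.0 and 920.9 in MEK5DD (-0.07, SE 0.08, adjusted p = 0.571). CLYBL, a mitochondrial lyase gene and the nearest on the ZIC5 side, was at 167.3 and 169.8 in WT and at 148.1 and 150.5 in MEK5DD (-0.17, SE 0.13, adjusted p = 0.424). ZIC4 had 1 further listed neighbour within 1 Mb that was analysed, PLSCR1, with a difference of 0.18 (SE 0.08, adjusted p = 0.175).

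**Figure D3:**
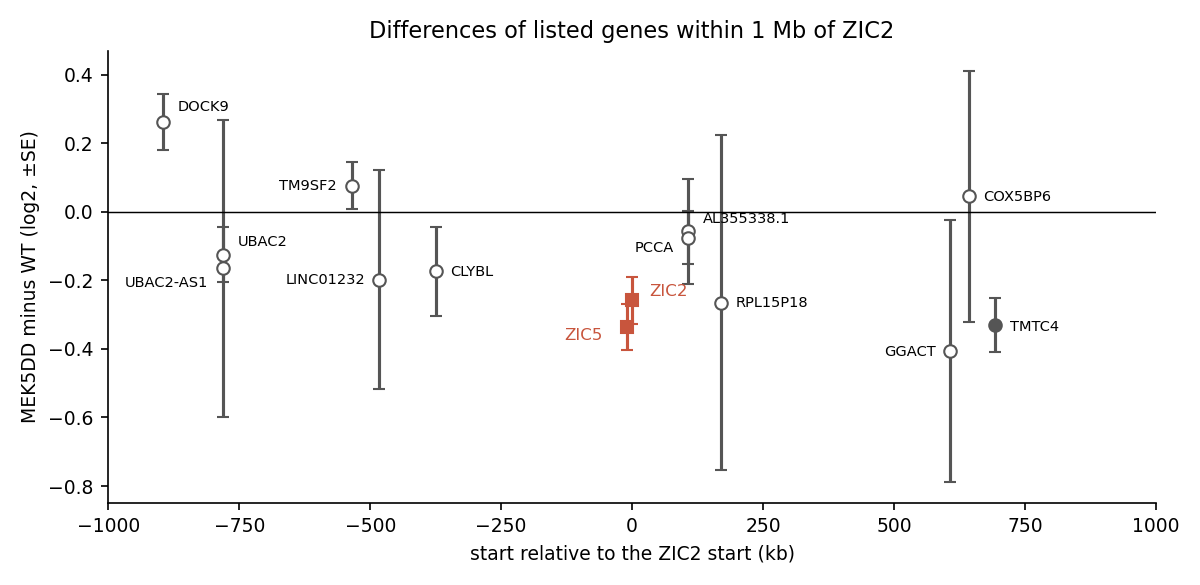
Log2 difference of MEK5DD minus WT with its SE (y axis) of listed genes against the distance of their start from that of ZIC2 in kb (x axis). Red squares are ZIC2 and ZIC5, grey circles the 12 other genes, filled where limma called them (TMTC4 only). The pair lies below 0 with short error bars, between neighbours whose bars are mostly longer or reach 0. Bar length depends partly on the level of a gene.

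The profile of each ZIC gene over the 4 libraries was set beside those of other tested genes with a mean of at least 100. Closeness was the Euclidean distance between log2 values centred on each gene's mean. The 5 nearest to ZIC2 were R3HDM2 (distance 0.01), SMN2, SEZ6L2, SLC37A4 and AC093752.1 (0.03). The 5 nearest to ZIC5 were GRHL2 (0.02), TRIM44, USP3, ZNF689 and CD24 (0.02). ZIC2 and ZIC5 lay 0.11 apart. Among the 10783 genes compared, ZIC5 would rank 272 by closeness to ZIC2, and ZIC2 240 by closeness to ZIC5. The 5 nearest to ZIC4 were AMOT (0.07), PLCH1, ZFHX2, RAPGEF5 and RHBDL3 (0.13), and both other ZIC genes were farther (0.52 for ZIC5 and 0.62 for ZIC2). With only 4 libraries in 2 groups, many genes share any such profile.

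Lists of genes related to ZIC function were counted in the same limma fit, beside 6.47% of all genes lower and 7.69% higher. As the lists were chosen with earlier results of these data known, their counts here and in the next paragraph add no support for a shared change. Of the GLI and GLIS relatives 4 were tested and 0 changed (also 0 at an unadjusted p under 0.05, with edgeR and with DESeq2), with GLI2 at 874.6 ± 11.3 in WT and 801.5 ± 24.3 in MEK5DD and GLI3 at 1187 ± 12.2 and 1107 ± 9.03 (SD, n = 2). Their differences, -0.13 (SE 0.08) and -0.10 (SE 0.07), were smaller in size than that of ZIC2, though no test compared them. GLI1 (0.08, SE 0.11) and GLIS2 (0.16, SE 0.12) had positive differences. The hedgehog ligand genes SHH, IHH and DHH were not listed. Of 9 tested hedgehog pathway genes 4 fell and 0 rose in limma (5 and 1 at an unadjusted p under 0.05, 4 and 1 with edgeR, 3 and 0 with DESeq2; median -0.40). These were the co-receptor gene GAS1 (-0.97, SE 0.17), the ligand release gene DISP1 (-0.81, SE 0.21), the receptor gene PTCH1 (-0.44, SE 0.08) and the signal transducer gene SMO (-0.40, SE 0.07). GAS1 was the only one called in every fit that left out 1 library, and without the trend none of the 4 was called. Among 15 holoprosencephaly genes other than ZIC2, 6 fell and 2 rose (6 and 4 at an unadjusted p under 0.05, 6 and 3 with edgeR, 4 and 2 with DESeq2; median -0.13). GAS1, DISP1 and PTCH1 belong to both lists, so 3 of these 6 falls are counted in each. The forebrain factor gene SIX3 fell from 393.2 ± 8.16 to 169.8 ± 2.35 (SD, n = 2; -1.21, SE 0.11), and the ligand genes NODAL and FGF8 were those that rose, FGF8 without a call when the trend was left out (adjusted p = 0.0544).

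Neural plate and forebrain factors had 9 of 12 tested genes lower and 0 higher (10 and 0 at an unadjusted p under 0.05, 9 and 0 with edgeR, 8 and 0 with DESeq2; median -1.03). The median of this list was lower than the difference of each ZIC gene. LHX5, a homeobox gene of the anterior neural plate, was at 64.3 and 71.9 in WT and at 3.63 and 2.99 in MEK5DD, and SIX6, SOX1 and SOX21 were the next largest falls. LHX5 passed the filter on low values through WT alone, and its MEK5DD values lay near the floor. PAX6, a neural progenitor factor, was below the filter, at 1.762 and 3.125 in WT and 6.361 and 5.98 in MEK5DD. Its MEK5DD values were thus the higher ones, also near the floor. Neural plate border and crest factors had 1 of 5 lower, SOX9 (-0.54), and 1 higher, ETS1 (0.73, SE 0.07; median -0.12), and the call of SOX9 was lost when WT replicate 2 was left out (-0.34, adjusted p = 0.394), in limma with no trend (adjusted p = 0.189) and in DESeq2 (adjusted p = 0.0993). Of the TCF and LEF genes and CTNNB1, which encodes their partner beta-catenin, 4 were tested and 0 changed, also with edgeR and DESeq2. In limma 1 was lower and 0 higher at an unadjusted p under 0.05. The median was -0.15, with TCF7L1 at 0.08 and CTNNB1 at -0.13. Of 14 subunits of NuRD, a chromatin remodelling complex, 3 fell and 0 rose (5 and 0 at an unadjusted p under 0.05, 3 and 0 with edgeR, 2 and 0 with DESeq2; median 0.00). They were CHD3 (-0.40), MTA3 (-0.32) and MTA1 (-0.24), of which none was called without the trend and only CHD3 without WT replicate 1 and without WT replicate 2.

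**Figure D4:**
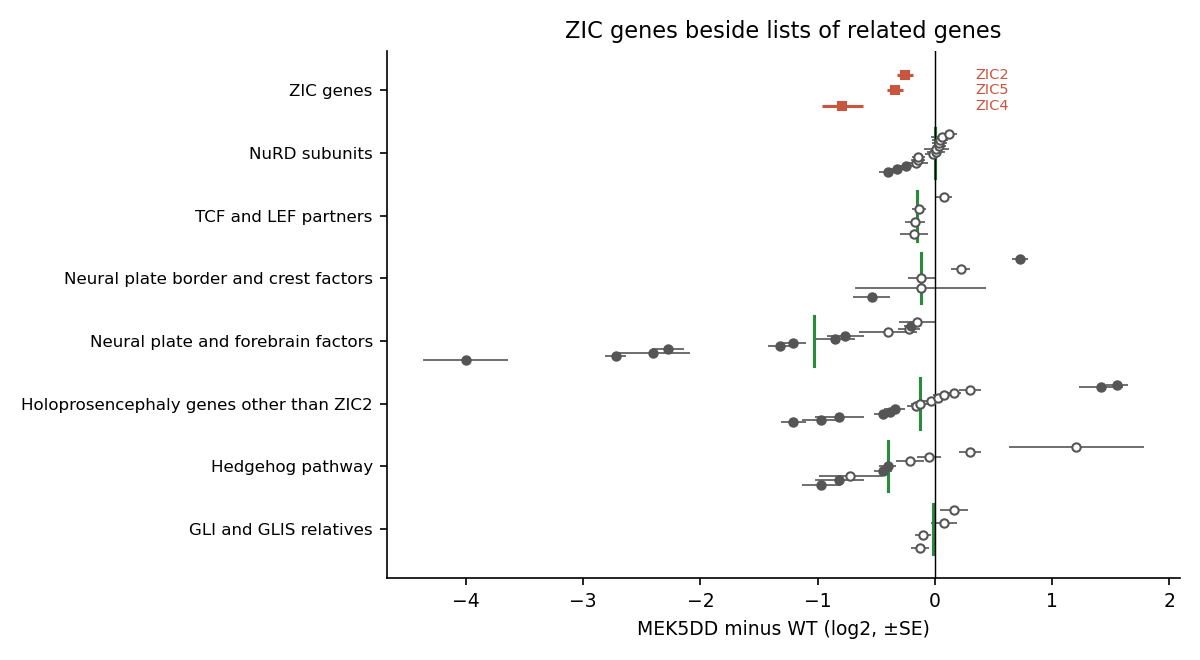
Log2 difference of MEK5DD minus WT with its SE (x axis) of the ZIC genes (red squares) and of the tested genes of 7 lists (y axis, circles, filled where limma called them), with green lines at the list medians. All 3 ZIC genes lie below 0, nearer to 0 than the median of the neural plate and forebrain list (-1.03).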

How the data were processed

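The labels' protocols give poly(A) RNA and paired-end Illumina sequencing. The authors deposited signal values, here gene counts normalised by 1 factor per library, as inferred from the values: all values of a library were whole multiples of its smallest one, to within 0.001 for 100% of genes. Dividing by it gave recovered reads. The submitters' processing notes name featureCounts 1.5.3, STAR, DESeq2 1.26.0, Trimmomatic 0.36 and the build hg38, without saying what each did. Symbols were matched to GENCODE v29 (GRCh38; 97.8% found).

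Genes reaching 10 in at least 2 libraries (15721) were fitted as log2(value + 1) in limma 3.58.1 (R 4.3.3), with its mean-variance trend. The fit draws each gene's variance toward that trend, so an SE depends partly on the gene's level. ZIC2 and ZIC5 both had an SE of 0.068, though their SDs within groups were 0.082 and 0.031 (log2). P-values had Benjamini-Hochberg adjustment over all these genes and a threshold of 0.05. Log2 differences on this scale understate changes of low genes. edgeR 4.0.16 (quasi-likelihood) and DESeq2 1.42.0 were run on recovered reads as alternatives.

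The ZIC genes and the lists were chosen with earlier results of these data known. Named besides them are listed neighbours within 1 Mb, the 5 nearest profiles, and up to 4 called genes with the largest change per list (2 of the highest mean where none was called). MAP2K5, PAX6, NANOG, SOX2, STMN2, MAP2, THY1, KDR, GATA4, FOXA1, GLI1 and GLIS2 are given with values outside that rule.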

Additional observations from a re-analysis of the deposited data

How the results depend on the processing

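The log2 difference of each ZIC gene was negative under all 14 alternatives. Leaving out 1 library, it ranged from -0.34 to -0.18 for ZIC2, from -0.36 to -0.31 for ZIC5 and from -0.91 to -0.68 for ZIC4. Under the other alternatives (pseudocounts, filters, scalings, variance model, replicate block, edgeR and DESeq2) it ranged from -0.27 to -0.26, -0.35 to -0.34 and -0.81 to -0.76, in the same order. Whether the ZIC genes met the rule for a call depended on the setting. With edgeR and DESeq2 all 3 did, where 6.73% and 3.75% of genes were lower by it. With no trend 0 of the 3 did, where 1.21% of genes were. The count of genes called, 2226, was 1358 in DESeq2 and 439 in limma run with no trend, and went from 1160 to 4629 with 1 library left out; the cause was not tested. With the replicate number as a block it was 3349, of which 1616 were lower, out of 15721 genes tested. The 3 ZIC genes were among those 1616. Same-numbered libraries hardly deviated together (correlation 0.05 over 15721 genes), so the numbers are not taken to pair them. For the 25 other genes tested under the alternatives, of 347 values 31 lost the call, 1 gained it and 0 reversed. ZIC4 is limited by its 69 to 144 reads per library.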
